A study of Rattus norvegicus with 18 samples.

Results

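Through 10 receptor genes, the cells of the suprachiasmatic nucleus (SCN) read their own peptides and the signals that reach the nucleus from outside. These were the receptors Vipr2 and Adcyap1r1 for VIP and PACAP, Avpr1a for vasopressin, Grpr for gastrin-releasing peptide and Mtnr1a for melatonin. Htr7, Htr1b and Htr2c for serotonin, Sstr1 for somatostatin and Npy1r for neuropeptide Y completed the set. Members were all probe sets whose single gene symbol in the array's annotation was 1 of these names. All 10 genes were on the array, with 16 probe sets of the 8799.

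The SCN of adult male Long-Evans rats was read on U34A arrays, 1-colour oligonucleotide chips on which a gene is seen by 1 or more sets of short probes. The animals had lived in 12 h of light and 12 h of darkness and stayed in constant darkness from circadian time (CT) 12 on. They were killed every 6 h from the following CT 0, and the RNA of 5 rats was combined into 1 pool per time point, of which 8 (0 to 42 h) are analysed here. Each pool was hybridised once in a first run, in duplicate at 24 h and 36 h (arrays a and b), and once more in a technical repeat, which gave 18 arrays. CT 0, 6, 12 and 18 thus each had 1 pool on either day. All groups share the dark schedule, since no pool in light was read, and p-values measure the spread between pools of which each phase has only 2. The tissue was a dissected block of SCN, so that fewer cells of a type and less RNA per cell cannot be told apart.

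All 10 proteins are receptors with 7 membrane-spanning segments that act through G proteins. VIP, released by neurons of the ventral SCN, acts on Vipr2 through Gs and cyclic AMP and keeps SCN neurons in step with each other. PACAP reaches the SCN with the retinal fibres that carry light, vasopressin and gastrin-releasing peptide are made within it and act through Gq, and melatonin from the pineal gland acts through Gi. Serotonin comes with fibres from the midbrain raphe and neuropeptide Y with those from the intergeniculate leaflet, and both shift or damp the clock's response.

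Cyclic AMP acts on genes through CREB, a factor that binds the response element TGACGTCA or its core, TGACG on either strand. Promoter windows from RefSeq on the GRCr8 rat genome, 250 bases before to 50 after a start site, held 9 of the 10 genes, all but Grpr. The core was in 5 of the 9 windows, against 22.0% of all 27457 windows. The 5 sites are printed because they are the members' only matches to the motifs searched here, and the capitals mark the core.
Avpr1a, chr7:59999495-59999515, plus strand, GRCr8: acacctgtTGACGcgctacct
Mtnr1a, chr16:53896518-53896538, minus strand, GRCr8: cctgcactTGACGtctccccc
Htr7, chr1:243173115-243173135, minus strand, GRCr8: cgcccacgCGTCAtccgcaga
Sstr1, chr6:81567460-81567480, plus strand, GRCr8: caaaagaaCGTCAgagcgccg
Npy1r, chr16:27813513-27813533, minus strand, GRCr8: tggggtgcCGTCAcatgatcc
The cores began 240, 109, 79, 15 and 138 bases upstream of the start used by the table. Those of Htr7, Sstr1 and Npy1r lie inside the range that RefSeq gives for the gene, and those of Avpr1a and Mtnr1a lie outside it. The whole response element, the E-box CACGTG, the D-box TTATGTAA and the RORE core AGGTCA, searched on both strands, were in 0 of the 9 windows. Over all windows their shares were 1.91%, 6.65%, 0.881% and 15.7%. A match of letters is a description and shows no binding.

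The first question was which receptors could be seen at all. The array floor was set at an intensity of 12.1, the 10th percentile of all deposited values. Of the 16 probe sets, 10 lay above it on all 18 arrays, and they covered 9 of the 10 genes. That is 62.5% of the members, against 71.8% of all 8740 probe sets other than controls. Htr7 was the 1 member above the level filter of the tests, the median probe set at an intensity of 121, with 248.5, 342.7 and 476.2 as its lowest, median and highest array. The Vipr2, Npy1r and brighter Adcyap1r1 probe sets ranged from 59.8 to 180.2, from 76.4 to 166.4 and from 35.8 to 241.1, and these 3 and Htr7 were the 4 members above the 25th percentile (33.9) on every array. The remaining 6 above the floor were Mtnr1a (14.7 to 186.7), Htr2c (17.1 to 148.5), Avpr1a (15.3 to 147.4), a further Adcyap1r1 probe set (15.8 to 181.6), Sstr1 (14.2 to 139.5) and Htr1b (13.4 to 90.9). Each of these spanned over 6 times its lowest value. The 15 probe sets for bacterial control genes, which are not rat genes, had a median of 15.5 and a 90th percentile of 67.4, a range in which most values of these 6 lie.

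Grpr was near or below the floor, with a lowest, median and highest array of 6.5, 11.1 and 20.8, and was above it on 3 of 18 arrays. Its transcript was not detectable with this probe set, which does not show that it is absent. Second probe sets of Adcyap1r1, Htr7, Htr2c and Sstr1 were above the floor on 5, 6, 5 and 17 arrays. A further Sstr1 probe set was above it on 0 arrays, with values of 2.4 to 9.1. Probe sets of 1 gene therefore disagreed for these 4 genes, and which of them reads the transcript better cannot be seen from the intensities. Probe sets differ in their own response, so their order says nothing of the order of the transcripts.

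**Figure D1:**
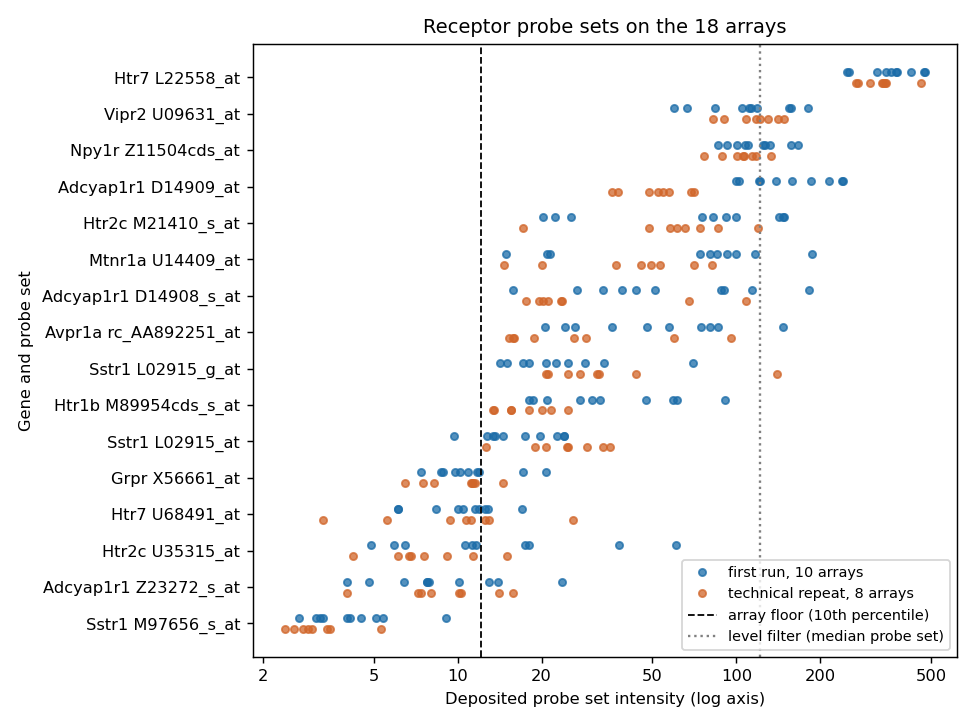
Deposited intensity (log axis) of the 16 receptor probe sets on the 18 arrays, blue for the first run and orange for the technical repeat; the dashed line is the floor at 12.1 and the dotted line the level filter at 121. Only Htr7 lies wholly to the right of the level filter, and the lowest 5 probe sets scatter around or below the floor.

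Rhythms of 24 h were tested with limma on the log2 means of the 8 pools, and the amplitude is how far the fitted curve rises above its own mean. At an unadjusted p under 0.05, 1 of the 16 members was rhythmic (Avpr1a), against 6.51% of the 8740 probe sets and 6.36% of the 4370 above the level filter. After Benjamini-Hochberg adjustment limma called 0 members and 0 of all probe sets. The 1 member at this threshold of 16 is thus close to the background. The 10 members above the floor had a median amplitude of 0.37, and all 6275 such probe sets 0.18. Their SD between runs of a pool was also larger, with a median of 0.59 against 0.37.

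Vipr2, the VIP receptor, had pool intensities of 106, 100.3, 129, 129, 142, 99.5, 72.0 and 143 from 0 to 42 h. The 36 h pool was the lowest in both runs, with 66.6 and 59.8 on the first-run arrays and 82.1 on the repeat. With both runs averaged the 42 h and 24 h pools were the highest, while the repeat alone was highest at 12 h (147.7) and 18 h (140.4). CT 12 was thus at 129 on the first day and 72.0 on the second. The fitted curve of Vipr2 had its peak at CT 20.6 and an amplitude of 0.28 ± 0.14 (SE, n = 8 pools, limma adjusted p = 0.796). The peak lay at CT 21.5 in the first run and CT 18.6 in the repeat, with amplitudes of 0.41 and 0.20. Its SD between pools was 0.34 and that between runs 0.26, so Vipr2 was 1 of the 3 members above the floor whose pools varied more than its runs.

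Adcyap1r1 encodes the PACAP receptor PAC1. On its brighter probe set, D14909, the pools read 105, 85.2, 128, 60.5, 91.6, 76.7, 107 and 67.5 from 0 to 42 h. The pools at CT 0 and CT 12 (91.6 to 128) were all above those at CT 6 and CT 18 (60.5 to 85.2), on both days and in both runs (arrays a and b averaged). At 24 h, however, the first-run arrays a and b read 99.4 and 214.6. Array a alone was below every first-run array at CT 6 and CT 18 (102.2 to 138.4). This probe set passed no test of a 24 h rhythm, with an amplitude of 0.21 ± 0.18 (limma, n = 8 pools, adjusted p = 0.869), since it was high 12 h apart. The contrast of CT 0 and 12 with CT 6 and 18 was chosen after these values were seen, and its result is therefore a description. It was 0.58 ± 0.12 on the log2 scale (SE, 4 pools on each side, limma adjusted p = 0.669). It was 0.62 in the first run and 0.54 in the repeat. D14909 was 1 of the 16 members at an unadjusted p under 0.05 in this contrast, against 6.6% of 8740 probe sets and 7.3% of the 4370. Both other Adcyap1r1 probe sets gave 0.23 ± 0.37 and 0.03 ± 0.12, so the pattern rests on 1 probe set. The repeat read D14909 lower in 8 of 8 pools, by a log2 difference of -1.52. The median difference was -0.14 over all 8740 probe sets and -0.06 over those above the level filter.

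The second Adcyap1r1 probe set above the floor, D14908, had its highest pool at 0 h, with 97.5, and pools of 26.5 to 46.3 at the other times. The repeat was highest at 0 h, with 108. The first run read 87.8 there, below its 113.4 at 18 h and 90.5 at 42 h. At 36 h the first-run arrays gave 26.8 and 181.6 and the repeat 20.3. The SD between runs was 1.06, against 0.60 between pools. The fitted amplitude was 0.47 ± 0.25 (limma, n = 8 pools, adjusted p = 0.799). In the first run alone it was 1.08 with a peak near CT 18.5 and an unadjusted limma p of 0.0128 (adjusted p = 0.904). In the repeat alone it was 0.70 with its peak at CT 2.63 and an unadjusted p of 0.352.

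Avpr1a is the receptor through which vasopressin acts within the SCN. The pools read 65.3, 27.6, 30.5, 84.6, 38.8, 17.8, 35.7 and 36.9 from 0 to 42 h. The highest was at 18 h in the first cycle and the lowest at 30 h, which is CT 6. On each day the pool at CT 18 and that at CT 0 were above the pool at CT 6. The fitted peak was at CT 19.6 and the amplitude 0.73 ± 0.23 (SE, n = 8 pools), with an unadjusted limma p of 0.0439 and an adjusted p of 0.729. In the exact permutation test over pools the p was 0.0603. The fitted peak was at CT 18.9 in the first run and CT 20.3 in the repeat, with amplitudes of 0.70 and 0.80, yet the p within them was 0.317 and 0.246. Single pools differed widely between runs, as at 0 h, where the first run read 147.4 and the repeat 28.9. The SD between runs was 0.94 and that between pools 0.70. Of the 8 fits that left out 1 pool, that without the 42 h pool gave an unadjusted limma p under 0.05 (0.00645, adjusted p = 0.674), and the other 7 did not, with amplitudes of 0.56 to 0.81.

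**Figure D2:**
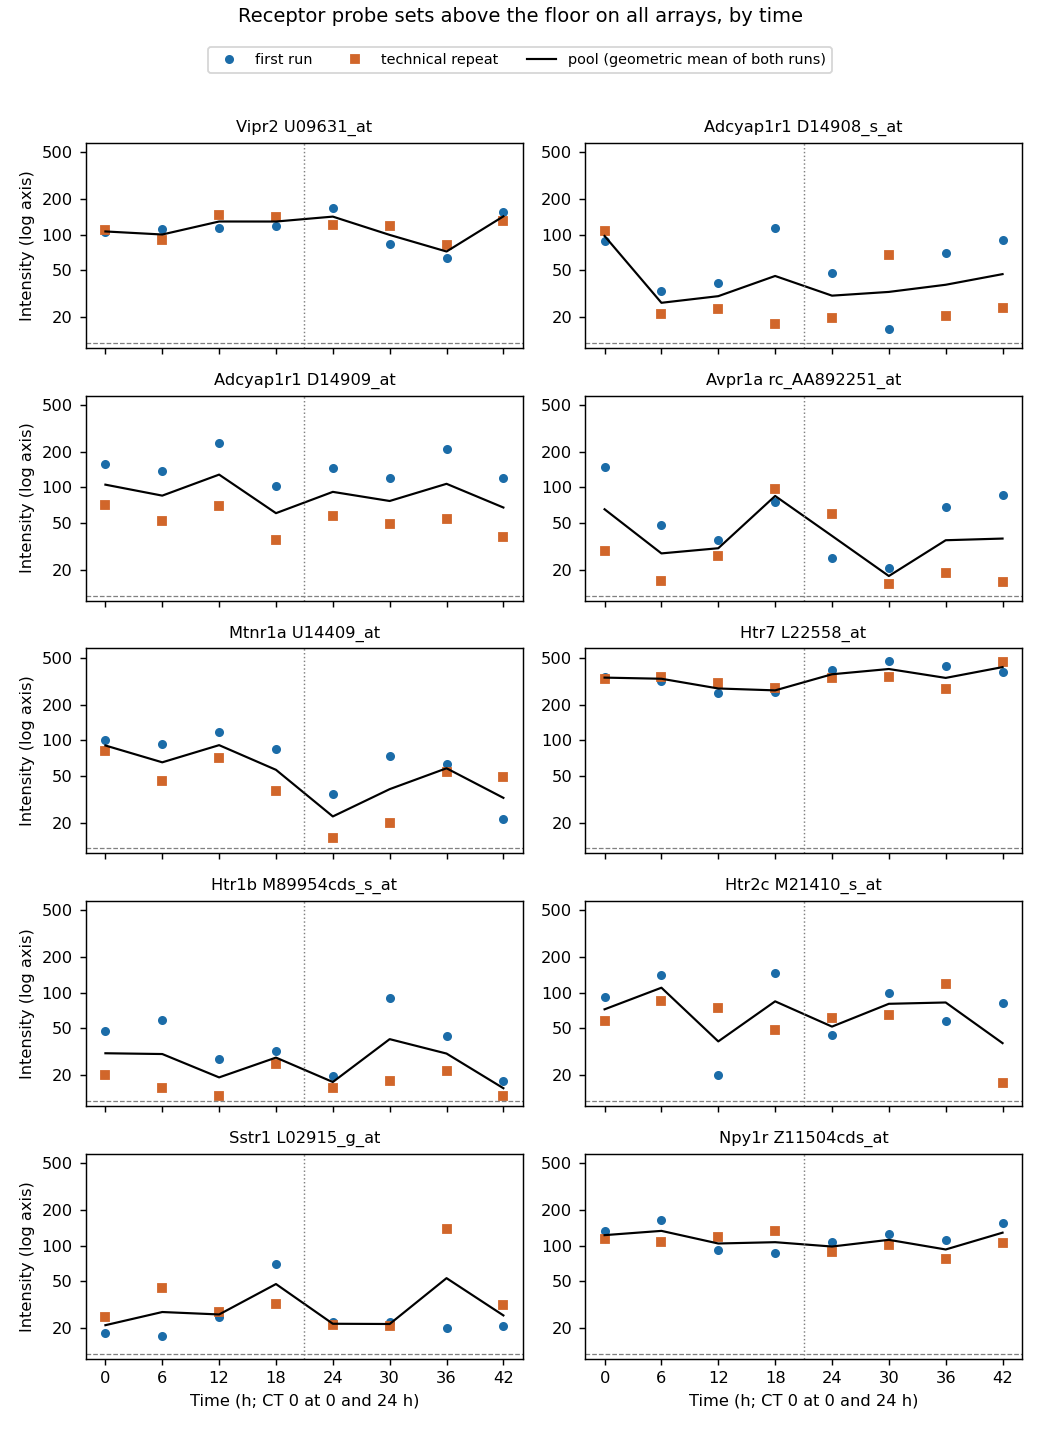
Intensity (log axis) by time for the 10 receptor probe sets above the floor on all arrays, with the first run as blue circles (arrays a and b averaged), the technical repeat as orange squares and the pool as a line; the dotted vertical line parts the 2 days. Vipr2 is lowest at 36 h in both runs (pool value 72.0), the line of Mtnr1a is lower after 18 h, and for Avpr1a, Htr2c and the Adcyap1r1 probe set D14908 the runs often lie further apart than the pools.

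Mtnr1a encodes the MT1 melatonin receptor. Its pools read 90.1, 64.9, 90.7 and 56.0 on the first day and 22.6, 38.4, 57.8 and 32.4 on the second. All pools of day 2 but that at 36 h were below all pools of day 1. Geometric means were 73.8 on day 1 and 35.7 on day 2, a log2 difference of -1.05 ± 0.28 (SE, n = 4 pools per day, limma adjusted p = 0.960) with an unadjusted p of 0.00996. The difference was -1.18 in the first run and -0.91 in the repeat. Arrays a and b of the first run read 14.9 and 80.7 at 24 h, and 20.9 and 186.7 at 36 h. Without arrays a the difference was -0.70 with an unadjusted limma p of 0.109 (adjusted p = 0.992). Its fitted rhythm had an amplitude of 0.36 ± 0.34 (limma, n = 8 pools, adjusted p = 0.890), with peaks at CT 7.97 and CT 14.1 in the runs.

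Mtnr1a is also known from the pars tuberalis, a strip of pituitary tissue below the hypothalamus that a dissection may include. Hormone genes of that tissue were set beside it after its values were seen. Cga, the common subunit of the glycoprotein hormones, read 1053, 3141, 433, 586, 753, 1068, 2263 and 432 on its brighter probe set, from 0 to 42 h. Tshb, the thyrotropin subunit, was also highest at 6 h and 36 h, with 256 and 300.4. For Mtnr1a those pools read 64.9 and 57.8, and its 2 highest pools were at 0 h and 12 h. Day 2 minus day 1 was -0.02 ± 0.62 on the log2 scale for Cga and 0.66 ± 1.17 for Tshb (limma, 4 pools per day, adjusted p = 1 and 0.989). The part of this tissue in the Mtnr1a values was not tested.

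Htr7 is the Gs-coupled serotonin receptor through which serotonin shifts the SCN clock. Among the member serotonin receptors, its probe set above the floor on all arrays had the steadiest reading. Its pools were at 339, 331, 274 and 264 on the first day and 361, 400.4, 337 and 415 on the second. On the second day 3 pools were above all those of the first, and the 36 h pool lay below that at 0 h. The second day was higher by 0.33 ± 0.14 (SE, n = 4 pools per day), with an unadjusted limma p of 0.0442 and an adjusted p of 0.997. The difference was 0.52 in the first run and 0.15 in the repeat. Without the 3 first-run arrays with high hybridisation controls it was 0.24 with an unadjusted p of 0.109 (limma, adjusted p = 0.968). No daily rhythm passed the test, the fitted amplitude being 0.12 ± 0.12 (limma, n = 8 pools, adjusted p = 0.886). Its SD between pools, 0.23, was close to that between runs, 0.24. Among the 4370 tested probe sets, those of Hnrnpf and Cd81 had pool values most like it, at Pearson's r of 0.957 and 0.938 over 8 pools that share their arrays.

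Htr1b, a Gi-coupled receptor that sits on nerve endings and curbs release, had pools of 30.8, 30.3, 19.2, 28.3, 17.6, 40.6, 30.6 and 15.6 from 0 to 42 h. The technical repeat was lower in 8 of 8 pools, by a log2 difference of -1.08, and had 13.4 to 24.8 on its arrays. In the first run alone the fitted amplitude was 0.80 (limma adjusted p = 0.904) with a peak at CT 6.40, and in the repeat it was 0.06. Both runs together gave 0.37 ± 0.21 (limma, n = 8 pools, adjusted p = 0.802).

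Htr2c is Gq-coupled and strongly expressed in the choroid plexus as well as in neurons. Its pools were 72.6, 111, 38.8, 84.8, 51.8, 80.8, 82.9 and 37.5 from 0 to 42 h. The runs disagreed on the low pools: the first run read 20.3 at 12 h and 82.3 at 42 h, and the repeat 74.2 and 17.1. The amplitude was 0.38 ± 0.26 (limma, n = 8 pools, adjusted p = 0.826), and the SD between runs, 0.97, exceeded that between pools, 0.57. Ttr, the thyroid hormone carrier of the choroid plexus, was set beside it. Its probe set with the larger amplitude read 172, 308, 158, 52.3, 94.6, 305, 112 and 106, and its fitted peak was at CT 6.12 with an amplitude of 1.02 ± 0.18 (limma, n = 8 pools, adjusted p = 0.321). The other Ttr probe set, also above the floor on all arrays, had an amplitude of 0.18 and an adjusted limma p of 0.955. With both runs averaged, the highest pool of Htr2c, at 6 h, was also the highest of the first Ttr probe set. The fitted peak of Htr2c was then at CT 5.43. Neither run alone was highest at 6 h: Htr2c was highest at 18 h in the first run (148.5) and at 36 h in the repeat (119.9). Its fitted peak was at CT 0.46 in the first run and CT 7.72 in the repeat. The 18 h pool, at 84.8 for Htr2c, was the lowest of that Ttr probe set (52.3). At 30 h against 18 h the runs of Htr2c differed in direction, with 99.7 against 148.5 in the first run and 65.5 against 48.4 in the repeat. The dimmer Htr2c probe set, above the floor on 5 of 18 arrays, had its highest pool at 12 h (27.1) and a fitted peak at CT 14.0. Of the 15 choroid plexus and ependyma markers 10 were on the array and 8 above the floor. The summed intensity of the 10 was 6541 to 7816 on the first day and 7264 to 9275 on the second. Most of that sum came from Igf2 (2952 to 4631 over the pools) and Enpp2 (2038 to 3690), and little from Ttr (52.3 to 308). The part of these markers in the Htr2c values was not tested.

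Sstr1, a Gi-coupled receptor for somatostatin, had pools of 21.2, 27.4, 26.1, 47.3, 21.8, 21.7, 53.0 and 25.6 on the probe set above the floor. The highest pool, at 36 h, came from the repeat (139.5), while the first-run arrays there read 28.6 and 14.2. The curve peaked at CT 14.2 and its amplitude was 0.47 ± 0.20 (limma, n = 8 pools, adjusted p = 0.764).

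Npy1r, the Y1 receptor, was the flattest of the members above the floor. From 0 to 42 h the pools were 123, 133, 104, 107, 98.2, 112, 92.7 and 129, and the highest was 1.44 times the lowest. The amplitude was 0.08 ± 0.11 (limma, n = 8 pools, adjusted p = 0.934), and the runs differed by more (SD 0.32) than the pools (0.19).

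**Figure D3:**
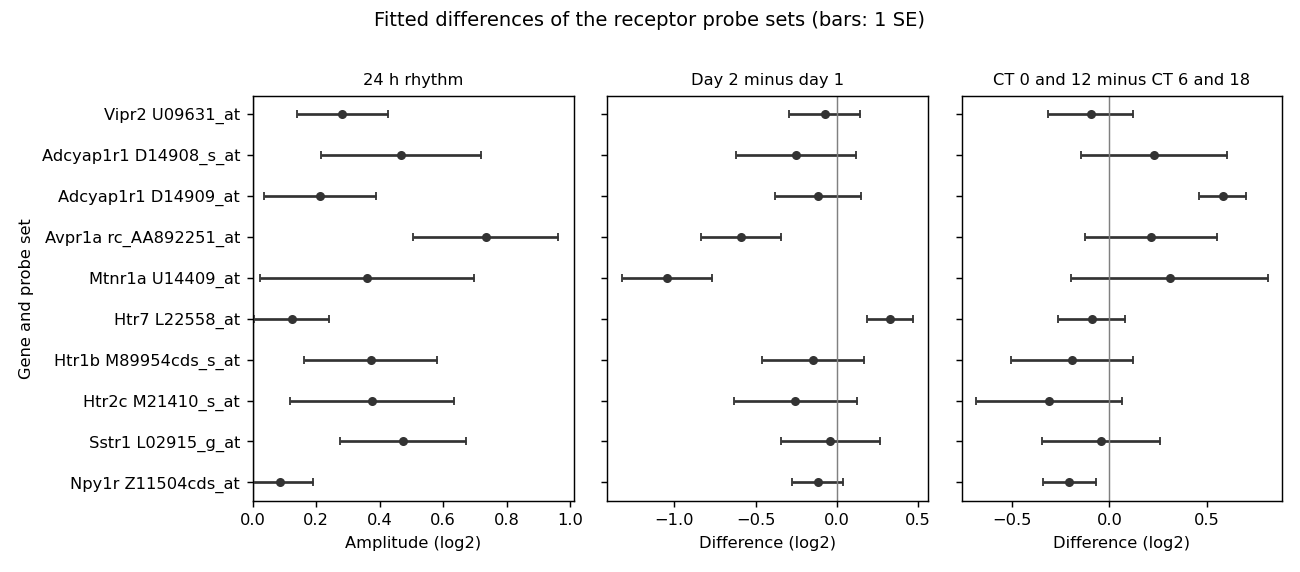
Fitted values of the 10 receptor probe sets above the floor on the log2 scale with bars of 1 SE: the 24 h amplitude, the second day minus the first, and CT 0 and 12 minus CT 6 and 18. The largest amplitude is that of Avpr1a (0.73), Mtnr1a stands lowest in the day comparison (-1.05) and Adcyap1r1 D14909 highest in the contrast chosen after its values were seen (0.58).

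The second day was set against the first with a day term beside the rhythm. At an unadjusted p under 0.05, 2 of the 16 members differed, Mtnr1a lower and Htr7 higher, against 5.14% of the 8740 probe sets (2.91% lower and 2.23% higher) and 3.96% of the 4370 (2.06% lower and 1.9% higher). After adjustment limma called 0. Of the 10 members above the floor, 9 had a negative difference, against 50.1% of all 8740 probe sets, and their median was -0.13 against -0.00 for all those above the floor. That 50.1% includes probe sets below the floor. Except for Mtnr1a and Avpr1a, each of the 9 differences was smaller in size than its SE, as with -0.07 ± 0.22 for Vipr2. The 9 include both Adcyap1r1 probe sets above the floor, and all share the same pools, so their signs are not independent. Avpr1a had the second largest difference, -0.59 ± 0.25 (limma, 4 pools per day, adjusted p = 0.961). Without the 36 h pool it was -0.85 with an unadjusted limma p of 0.00319 (adjusted p = 0.946). For Npy1r the difference was -0.12 ± 0.16 over both runs, 0.11 in the first and -0.35 in the repeat. For the Sstr1 probe set above the floor it was -0.04 ± 0.30 over both runs, -0.33 in the first and 0.25 in the repeat. Both are among the 9 negative differences, and the sign of both changed with the run.

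Among the 10 members above the floor, the SD between runs exceeded that between pools in 7, and the same was true of 78.7% of all 6275 such probe sets. Members were thus no exception. For these 7, single runs spread more around their pool than the means of both runs did between the 8 pools. The pools differ in rats and day as well as in time of day. The mean difference between runs, such as the -1.52 of D14909, is not part of these SDs. The 3 with the larger spread between pools were Vipr2, Mtnr1a and Adcyap1r1 D14909. There were 3 first-run arrays, at 12 h, 18 h and 36 h (b), that had mean intensities of 4021 to 6684 on the bacterial and phage hybridisation controls, against 1132 to 2894 on the other 15. Some members had their highest array among these 3, as with 241.1 for D14909, 181.6 for D14908 and 186.7 for Mtnr1a at 36 h (b). Without these arrays, in a fit with the run as a term and the pool as a block, Mtnr1a differed between days by -1.16 (limma, unadjusted p = 0.0158, adjusted p = 0.918) and the contrast of D14909 was 0.49. That fit takes the runs of a pool nearly as separate replicates, since the block correlation was 0.0254 with all arrays in, so its p-values are too small. The amplitude of Avpr1a was 0.75 in that fit, with a limma p of 0.109.

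**Figure D4:**
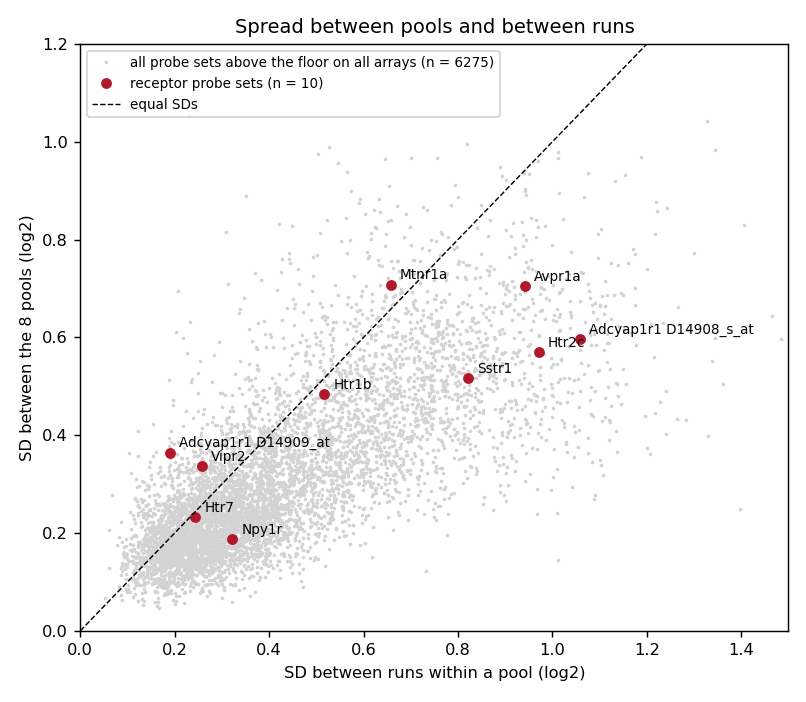
SD between the 8 pools against SD between both runs of a pool (log2, run offset removed) for all 6275 probe sets above the floor (grey) and the 10 receptor probe sets (red); the dashed line marks equal SDs. Of the receptors, 7 lie below the line, with Avpr1a, Htr2c and Adcyap1r1 D14908 at an SD between runs of 0.94 to 1.06.

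The ligands and the signalling chain behind the receptors were read from lists by function. Of 15 genes for the ligands and their synthesis 12 were on the array and 9 were tested. Avp, the vasopressin gene, was the 1 of 9 with an unadjusted p under 0.05, peaking at CT 12.9 with an amplitude of 0.31 ± 0.10 (limma, n = 8 pools, adjusted p = 0.746). A further Avp probe set above the floor on all arrays had an amplitude of 0.15 and an adjusted p of 0.840 (limma). The fitted peak of the receptor gene Avpr1a was later, at CT 19.6. Vip lay below the level filter and peaked at CT 23.1 with an amplitude of 0.49 ± 0.16 (limma, n = 8 pools, adjusted p = 0.729). Maob, a serotonin-degrading oxidase, had an amplitude of 0.24 and did not pass. Sst and Npy, the genes of the ligands of Sstr1 and Npy1r, were lower on the second day by log2 differences of -0.41 and -0.39 (limma, adjusted p = 0.997 for both).

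Of the 23 other receptors of the same families on the array, 16 were above the floor on all arrays and 7 were tested. At an unadjusted p under 0.05, 0 of the 7 were rhythmic and 0 differed between days, and limma called 0 after adjustment. Among these 7 the smallest p belonged to Htr6 and Avpr2, with amplitudes of 0.18 and 0.14. Below the level filter, in the fit of all 8740 probe sets from which most members were read, Htr4 had an amplitude of 0.78 with an unadjusted limma p of 0.00292 (adjusted p = 0.614). The Htr4 probe set was above the floor on 15 of 18 arrays, with pools of 17.9 to 67.1. Htr4 and Vipr1 were picked after the values of this list were seen. In the same fit Vipr1 was lower on the second day by a log2 difference of -0.89 with an unadjusted limma p of 0.00617 (adjusted p = 0.960). In the chain of Gs, adenylyl cyclases and cyclic AMP-dependent kinase 0 of 10 tested genes were rhythmic at that threshold, and Adcy6 and Adcy5 had amplitudes of 0.23 and 0.63 and did not pass. Counts were likewise 0 of 3 for Gi and Go and 0 of 5 for Gq, phospholipase C and the IP3 receptors. There, Gnai2 and Gnaz had amplitudes of 0.24 and 0.09, and Itpr3 and Itpr1 of 0.17 and 0.23. Among kinases and RGS proteins that end a receptor's signal, Grk6 was 1 of 8 with an unadjusted p under 0.05, peaking at CT 12.3 with an amplitude of 0.24 ± 0.08 (limma, n = 8 pools, adjusted p = 0.746). Grk4 had an amplitude of 0.33 and did not pass. As a reference on the same pools, Dbp, an output gene of the clock, peaked at CT 11.7 with an amplitude of 0.64 ± 0.09 (limma, n = 8 pools, adjusted p = 0.166). A dimmer Dbp probe set, also above the floor on all arrays, peaked at CT 11.5 with an amplitude of 0.44 (limma adjusted p = 0.746).

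The tissue label was checked against neuronal and SCN genes. Of 10 pan-neuronal markers 8 were on the array and 7 above the floor on all arrays. Avp was at a mean intensity of 1732 on its brightest probe set and Vip at 49.0, while Rorb, a nuclear receptor of the SCN, was at 17.5 and above the floor on 9 of 18 arrays. Pmch, Pomc and other genes of neighbouring hypothalamic neurons were also read, with 10 of 12 on the array and all 10 above the floor on every array, and a summed intensity of 6999 to 9940 over the pools. Markers of astrocytes (8 of 9), myelin (7 of 7), microglia (5 of 7) and vessels (7 of 7) were above the floor too. None of these lists had a gene called rhythmic after adjustment by limma, and 2 neighbouring-neuron genes (Pmch and Pomc) and 1 astrocyte gene (Fabp7) had an unadjusted p under 0.05.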

How the data were processed

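The authors deposited linear intensities per probe set. How probes were summarised and scaled is not given in the sources used here. Values were kept as deposited, since the trimmed mean was 500.7 to 500.8 on all 18 arrays, while medians were 136.5 to 152.3 in the first run and 107.9 to 127.6 in the technical repeat. The number of arrays limits the precision. Intensities below 12.1 were set to that floor and log2 transformed. Arrays a and b, assumed to read 1 pool, were averaged first, then both runs, which left 8 pool values. The same pool was read in both runs per the labels, so the pairing is technical and the pool is the replicate.

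With limma 3.58.1 (lmFit and eBayes under R 4.3.3, 5 residual and 5.13 prior degrees of freedom), 24 h cosine and sine terms were fitted, plus a day term for the day comparison, to 4370 probe sets whose mean lay above the median, with Benjamini-Hochberg adjustment and a threshold of 0.05. Members below that level were read from the same fit of all 8740 probe sets other than 59 controls. SDs between runs were taken within pools after removal of the mean difference between runs. Exact permutation tests (two-sided by construction) used all 315 distinct arrangements of the pools, with a smallest p of 0.00317. The fits were tested on simulated data.

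Of the 8740, 7006 probe sets had 1 gene symbol, 308 several and 1426 none. Every member probe set was named. So were the 2 probe sets most correlated with a tested member, up to 2 genes per list by the rhythm p, Ttr beside Htr2c, and Dbp. Other genes (Vip, Rorb, Sst, Npy, Htr4, Vipr1, Cga, Tshb) were named after their values were seen. The members and lists were chosen with earlier results of these data known. The alternatives covered normalization, level filter, floor, pseudocount, limma's trend and robust options, single runs, arrays, pools, a day term and a block for the pool.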

Additional observations from a re-analysis of the deposited data

Results flagged for a closer look

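The spread of each member over its 8 pools was searched for a highest or lowest pool far from the rest. Chance alone gives such a gap in about 1 in 20 groups, and 2 of the 16 members showed 1. That rate need not hold for probe sets with pools set to the floor. The 0 h pool of the Adcyap1r1 probe set D14908 stood at 97.5, with a gap to the next pool of 0.571 of the whole log2 range. It was the highest in the repeat (108), while the first run (87.8) was higher at 18 h (113.4) and 42 h (90.5). The 0 h pool of the dim Htr7 probe set U68491 stood at 18.0, with a gap of 0.787 of the range. Its first-run array read 12.5 and its repeat 26.0, and its other pools were at or near the floor.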

How the results depend on the processing

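No member passed an adjusted p under 0.05 for its rhythm or day difference in any of 22 alternatives (limma, lowest adjusted p 0.674 and 0.650). Over all probe sets the count of rhythmic calls was 0 and became 2 with a level filter at the 75th percentile, 2 with trend and robust in limma, and 1 each in the technical repeat alone, with the replicate block and with that block without the 3 arrays of high hybridisation controls. The count of day calls was 0 and became 1 without the 0 h pool (range 0 to 1 over the pools left out). Members rhythmic at an unadjusted p under 0.05 numbered 1, and 0 in the technical repeat alone, without arrays a and under both fits with the replicate block. They ranged from 0 to 1 without 1 pool each (0 without the 6, 18, 24, 30 or 36 h pool), and the member was Mtnr1a without the 0 h pool and Sstr1 without the 12 h pool. It was Adcyap1r1 D14908 in the first run alone (0.0128, against 0.317 for Avpr1a) and Htr1b with the floor at the 25th percentile (0.0448, against 0.0567 for Avpr1a). The fit without the 3 arrays was added after the data were seen. With the floor at the 25th percentile, 4 members in place of 10 were above it on all arrays. The day difference of Mtnr1a ranged from -1.40 to -0.60 (floor at the 25th percentile) and had an unadjusted p under 0.05 in 20 of 22 alternatives, not in the technical repeat alone (0.132) or without arrays a (0.109). That of Htr7 ranged from 0.15 to 0.52 (12 of 22), and the amplitude of Avpr1a from 0.49 to 1.00 (9 of 22). The cause of these changes was not tested. The counts out of 22 include alternatives that could not alter a result. Changing or dropping the level filter left the fits of Mtnr1a and Avpr1a as they were, since these were read from all 8740 probe sets. The added day term left every day difference as it was, since that comparison already held a day term. Most members lie within the range of the bacterial control probe sets, which limits what their intensities can show.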
